A study of Homo sapiens with 11 samples.

Results

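The neutrophil granule protein genes are 10 genes whose products are stored in the granules of the neutrophil lineage: 6 primary granule genes (MPO, ELANE, PRTN3, AZU1, CTSG and CFD) and 4 genes of later granules (CAMP, LTF, LCN2 and MMP9). They were listed by gene symbol, with earlier results of these data known, and are 10 of the 58037 genes in the count table. RNA was sequenced from 11 libraries of an AML (acute myeloid leukaemia) line pair. OCI-AML3 is an established human AML cell line, and OCI-AML3-FLT3-ITD, called the FLT3-ITD line below, carries in its name an internal tandem duplication (ITD) of FLT3, the gene of a growth factor receptor on blood progenitors. Each line had 3 control libraries, and cells given 100 nM FHD-286 for 16 h gave 3 libraries of OCI-AML3 and 2 of the FLT3-ITD line. All were grown in the same serum-containing medium. FHD-286 is an inhibitor of the paired ATPases BRG1 and BRM, which power BAF complexes that move nucleosomes. Whether the controls received a vehicle, how the duplication was introduced and whether the FLT3-ITD line is a single clone are not given in the sources used here. No label states that replicates are separate cultures. The p-values therefore reflect only how these libraries vary, which may be technical.

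Neutrophil precursors make their granule proteins in waves, and a protein is sorted into the granule type that is forming when its gene is transcribed. Promyelocytes fill primary (azurophil) granules with myeloperoxidase and serine proteases. Myelocytes and later stages fill specific and gelatinase granules with cathelicidin, lactoferrin, lipocalin and gelatinase. PU.1, C/EBP factors, RUNX1 and MYB are known to drive the primary granule genes, and C/EBP epsilon is needed for most genes of the later granules. AML cells are commonly arrested at an immature stage of the myeloid lineage.

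The upstream regions of 5 members are shown, the tested members for which a RefSeq window was found. MPO, ELANE and MMP9 had no window. With FHD-286, PRTN3, AZU1 and CFD, which lie in a single cluster on chromosome 19, fell strongly, moderately and not detectably. CTSG is the most abundant protease transcript outside the cluster, and CAMP rose. Each region is the 250 bases before the RefSeq gene start on GRCh38.p14, on the strand of the gene. They are chr19:840749-840998 (plus strand) for PRTN3, chr19:827587-827836 (plus) for AZU1, chr19:859414-859663 (plus) for CFD, chr14:24576251-24576500 (minus) for CTSG and chr3:48223245-48223494 (plus) for CAMP. Capitals mark the letters GAGGAA, a core of PU.1 sites, on either strand (TTCCTC is its reverse complement).
PRTN3: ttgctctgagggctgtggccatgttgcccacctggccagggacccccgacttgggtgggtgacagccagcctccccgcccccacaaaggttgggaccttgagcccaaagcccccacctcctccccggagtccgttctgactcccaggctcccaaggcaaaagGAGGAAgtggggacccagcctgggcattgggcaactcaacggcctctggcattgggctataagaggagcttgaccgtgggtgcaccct
AZU1: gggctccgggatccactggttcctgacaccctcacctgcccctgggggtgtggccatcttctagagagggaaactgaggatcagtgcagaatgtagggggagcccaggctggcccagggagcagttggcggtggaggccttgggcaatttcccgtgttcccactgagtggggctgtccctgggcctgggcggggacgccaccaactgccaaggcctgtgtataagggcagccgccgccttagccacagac
CFD: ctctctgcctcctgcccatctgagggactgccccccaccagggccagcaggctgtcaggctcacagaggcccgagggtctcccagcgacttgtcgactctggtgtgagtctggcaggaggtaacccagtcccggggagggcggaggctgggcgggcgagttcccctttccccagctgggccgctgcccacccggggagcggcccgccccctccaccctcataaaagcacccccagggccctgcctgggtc
CTSG: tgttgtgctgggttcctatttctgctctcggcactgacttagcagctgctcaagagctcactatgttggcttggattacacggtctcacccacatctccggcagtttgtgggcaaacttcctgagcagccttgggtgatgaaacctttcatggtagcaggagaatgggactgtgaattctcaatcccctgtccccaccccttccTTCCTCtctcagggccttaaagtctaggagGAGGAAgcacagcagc
CAMP: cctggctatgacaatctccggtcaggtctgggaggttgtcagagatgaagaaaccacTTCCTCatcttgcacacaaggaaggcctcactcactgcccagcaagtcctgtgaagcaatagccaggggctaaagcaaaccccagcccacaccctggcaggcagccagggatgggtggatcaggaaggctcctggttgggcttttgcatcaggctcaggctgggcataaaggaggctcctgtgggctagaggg

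Motifs were searched on both strands of the RefSeq window from 250 bases before the start to 50 bases after its first base, counting the first base as 0. PRTN3 held GAGGAA at -88 to -83 and TTNNGNAA, a C/EBP-like pattern, at -62 to -55. AZU1 held no GAGGAA, and its TTNNGNAA match lay at -111 to -104. The AZU1 and PRTN3 matches to TTNNGNAA had the same letters, TTGGGCAA. CTSG held GAGGAA on both strands, at -46 to -41 and at -16 to -11, and CAMP held it on the minus strand at -193 to -188. CTSG also held TTNNGNAA at 17 to 24, and AACNG (MYB) matched in PRTN3, AZU1 and CTSG. In CFD none of these 3 motifs matched, and in CAMP TTNNGNAA and AACNG did not match either. TGTGGT (RUNX) and TATAAA, the TATA box, matched in none of the 5 windows. GAGGAA is common, being present in 27.9% of 35116 promoter windows of this length, against 36.8% for TTNNGNAA, 13.1% for TGTGGT, 77.2% for AACNG and 11.5% for TATAAA. No match overlapped another in these 5 windows. A match is only a string of letters, and its absence says nothing about the factor. RefSeq windows were found for 7 of the 10 members. RefSeq and GENCODE 29 place the start of some of these genes differently, and the gene coordinates given below are from GENCODE 29.

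The 11 libraries held 58397190 to 79172389 counts. FLT3 stood at 39.2 to 43.3 CPM (counts scaled to library size with TMM factors) in the 6 OCI-AML3 libraries and at 169 to 203 CPM in 4 libraries of the FLT3-ITD line. The remaining library, by its label the second control of the FLT3-ITD line, had 53.4 CPM, near the OCI-AML3 level. Across the genes tested, its log2 CPM correlated at 0.979 to 0.984 with controls of OCI-AML3, and at 0.957 and 0.960 with controls 1 and 3 of its own line, so it goes against its label in these measures; genes are not independent replicates. It is kept in its labelled group and called control replicate 2 of the FLT3-ITD line below, and results that rest on it are given with and without it. With it the common biological coefficient of variation was 0.193, and without it 0.0652. The myeloid surface marker CD33 was present in all groups (means of 31.96 to 59.2 CPM in the 4 groups). It was listed for AML line identity with ANPEP, NPM1, CD34 and KIT. In treated OCI-AML3 and the treated FLT3-ITD line, ANPEP had means of 67.5 and 32.3 CPM, and NPM1 1155 and 1311 CPM. CD34 and KIT were too low to be tested. Of 8 markers of mature neutrophils, FCGR3B, CXCR1, MME, CEACAM3 and S100A12 stayed under 1 CPM in all libraries. The others, MNDA, CSF3R and CXCR2, had means of 374, 34.2 and 1.09 CPM in treated OCI-AML3. Their means in the treated FLT3-ITD line were 127, 35.2 and 1.37 CPM.

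In untreated OCI-AML3 the primary granule genes were among the most abundant transcripts, with the exception of MPO. Levels between genes are compared as CPM per kb of exon. PRTN3, which encodes proteinase 3, had 1696 ± 137 CPM per kb (SD, n = 3) and ranked 16 among the 18908 genes that passed the count filter. CTSG, which encodes cathepsin G, had 1413 ± 107 and ranked 23, and ELANE, which encodes neutrophil elastase, had 1199 ± 103 and ranked 25. These 3 serine proteases were followed by CFD, the gene of complement factor D (462 ± 36.7, rank 67), and AZU1, the gene of the inactive protease homologue azurocidin (260 ± 7.61, rank 120). MPO, the gene of the hydrogen peroxide-consuming enzyme myeloperoxidase and a classical marker of the myeloid lineage, had 0.544 ± 0.0463 CPM per kb and ranked 12288.

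Of the later granule genes, MMP9, which encodes gelatinase B, had 1.47 ± 0.0476 CPM per kb in untreated OCI-AML3. CAMP, the gene of the antimicrobial peptide cathelicidin, had 0, 1 and 1 counts. LTF, the gene of the iron-binding protein lactoferrin, had no count in 9 of 11 libraries and 1 and 3 counts in the treated FLT3-ITD libraries. LCN2, the gene of the siderophore-binding lipocalin 2, had no count in any library. A count of 0 allows up to 3 counts, which is 0.0366 to 0.0548 CPM in these libraries. LTF and LCN2 did not pass the count filter, so 8 of the 10 members were tested. In the order by CPM per kb within untreated OCI-AML3, neighbours from PRTN3 down to CAMP had library values that did not overlap, whereas CAMP, LTF and LCN2 overlapped.

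**Figure D1:**
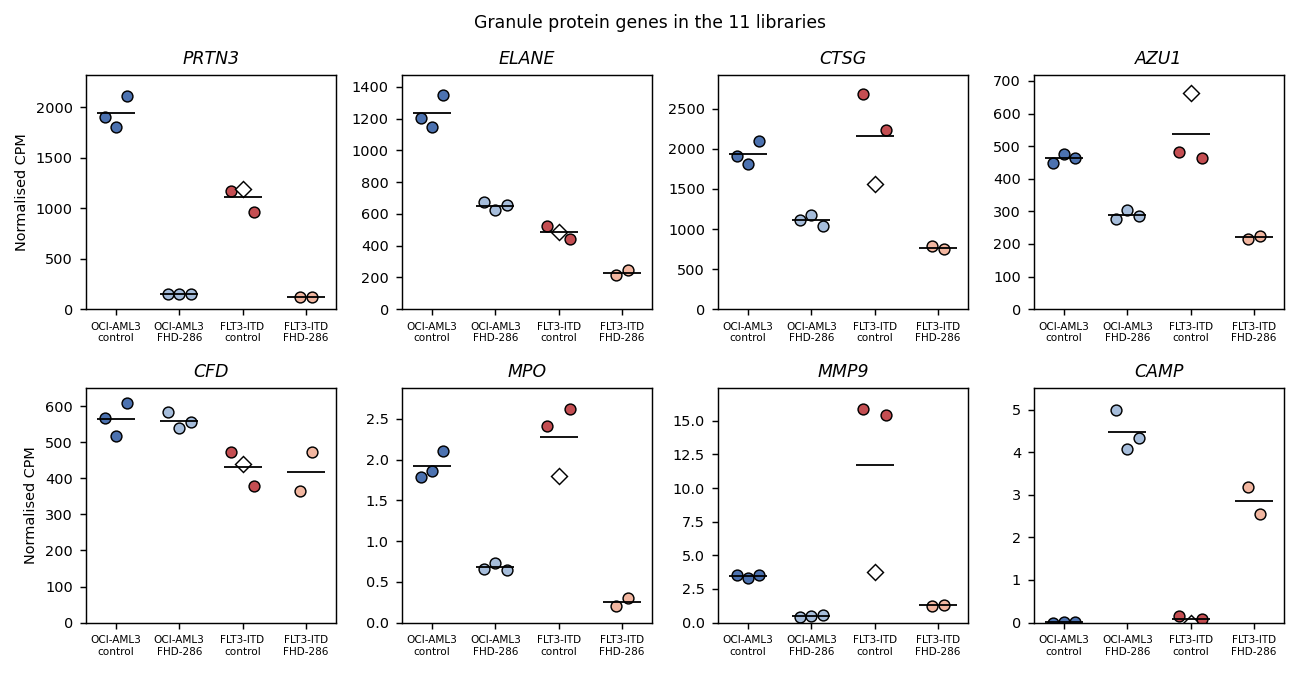
Each panel shows 1 tested member in normalised CPM on its own linear axis from 0, with 1 point per library and a horizontal line at the mean of each of the 4 groups. FLT3-ITD stands for OCI-AML3-FLT3-ITD, and the open diamond is its control replicate 2. In PRTN3 the treated libraries lie at 124 to 156 CPM, against 968 or more in all controls, and in CAMP the treated libraries are the high ones.

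FHD-286 lowered 5 of the 6 primary granule genes in OCI-AML3, PRTN3 most, while CFD kept a similar level. PRTN3 had 1906, 1809 and 2116 CPM in the controls and 153, 156 and 151 CPM with FHD-286. All treated libraries were far below all controls. The log2 fold change was -3.67 ± 0.10 (approximate SE), with an adjusted p of 8.39e-09 (edgeR quasi-likelihood test, Benjamini-Hochberg over all genes tested, as for all adjusted p-values below). In this comparison 7 of the 8 tested members were called at adjusted p under 0.05, against 41.3% of all genes tested. Of these, 6 were lower, against 21.5% of all genes, and CAMP was the 1 that rose, against 19.8%. CAMP had at most 1 count in each of these controls and passed the count filter through treated libraries. Its call was therefore not independent of the filter. The same 7 were called without control replicate 2 of the FLT3-ITD line, against 58.8% of all genes in that fit. The median log2 fold change of the 6 primary genes was -0.86, against 0.01 over all genes tested. In bulk libraries, fewer cells that express a gene and less RNA per cell cannot be told apart.

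ELANE encodes elastase, the protease whose mutations are known to cause congenital neutropenia. It had 1203, 1145 and 1351 CPM in OCI-AML3 controls and 674, 627 and 654 CPM with FHD-286. The groups did not overlap, and the log2 fold change was -0.92 ± 0.10 (adjusted p = 3.3e-05, edgeR). CTSG had 1911, 1812 and 2102 CPM in controls and 1114, 1174 and 1036 CPM with FHD-286. It was lower in each treated library, by -0.81 ± 0.16 on the log2 scale (adjusted p = 0.00243, edgeR). AZU1 had 449, 476 and 463 CPM in controls and 278, 305 and 287 CPM with FHD-286, again without overlap. Its log2 fold change, -0.68 ± 0.12 (adjusted p = 0.00116, edgeR), was the smallest among the 5 primary genes called.

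MPO fell from a low level. It had 98, 119 and 117 counts in OCI-AML3 controls, or 1.79, 1.86 and 2.10 CPM, and 49, 56 and 50 counts with FHD-286, or 0.657, 0.726 and 0.648 CPM. The treated libraries were all lower, with a log2 fold change of -1.50 ± 0.20 (adjusted p = 0.000202, edgeR). CFD, whose product cleaves factor B in the alternative complement pathway, had 568, 519 and 608 CPM in controls and 585, 539 and 556 CPM with FHD-286. These ranges overlapped, and the log2 fold change of -0.01 ± 0.11 did not pass the test (adjusted p = 0.939, edgeR). Its sign depended on the scaling: it was 0.06 with upper-quartile factors and 0.14 with library totals.

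The same 5 primary genes were called lower in the FLT3-ITD line and CFD was not. PRTN3 had 1167, 1193 and 968 CPM in controls and 125 and 124 CPM with FHD-286. Every treated library was below every control, with a log2 fold change of -3.15 ± 0.12 (adjusted p = 1.77e-07, edgeR), or -3.10 without control replicate 2. Here too 7 of the 8 tested members were called, against 30.5% of all genes tested. Lower were 6, against 14.9% of all genes, and CAMP was higher, against 15.6%. As in OCI-AML3, the call of CAMP was not independent of the count filter. Without control replicate 2 the same 7 were called, against 49% of all genes in that fit. The median of the 6 primary genes was -1.39, against -0.02 over all genes.

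ELANE had 527, 486 and 440 CPM in FLT3-ITD controls and 214 and 247 CPM with FHD-286. Both treated libraries were lower than all controls (log2 fold change -1.07 ± 0.11, adjusted p = 5.97e-05, edgeR). CTSG had 2691, 1560 and 2237 CPM in controls and 787 and 747 CPM with FHD-286. The lowest control value was that of control replicate 2. The log2 fold change of CTSG was -1.50 ± 0.19 (adjusted p = 0.000242, edgeR), or -1.68 without that library. AZU1 had 483, 663 and 462 CPM in controls and 216 and 226 CPM with FHD-286. For AZU1, control replicate 2 was instead the highest, and the log2 fold change was -1.28 ± 0.14 (adjusted p = 9.04e-05, edgeR) with it and -1.10 without it.

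MPO had 170, 125 and 210 counts in FLT3-ITD controls and 15 and 25 counts with FHD-286. In CPM these were 2.41, 1.80 and 2.62 against 0.206 and 0.305, without overlap. The log2 fold change was -3.14 ± 0.26 (adjusted p = 1.46e-05, edgeR), or -3.28 without control replicate 2. CFD had 472, 441 and 380 CPM in controls and 364 and 474 CPM with FHD-286. The treated libraries lay on either side of the controls, and the log2 fold change was -0.04 ± 0.13 (adjusted p = 0.838, edgeR). Library totals in place of TMM factors gave 0.07.

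The tested later granule genes moved in opposite directions, CAMP up and MMP9 down, in both lines. CAMP had 0, 1 and 1 counts in OCI-AML3 controls and 373, 315 and 334 counts with FHD-286, or 4.999, 4.09 and 4.33 CPM. A transcript at the detection limit was thus measurable in every treated library. The ratio of the summed counts, 1022 against 2, corrected for library size, was 389 with a 95% interval of 108 to 3220 that covers counting error only (adjusted p = 1.02e-05, edgeR). CAMP in the FLT3-ITD line had 11, 0 and 6 counts in controls and 232 and 208 counts with FHD-286, which is 3.19 and 2.54 CPM. The library with no count was control replicate 2. The ratio of 440 against 17 summed counts was 36.8 (95% interval 22.7 to 63.7), or 25.2 (15.6 to 43.6) without that library, and the fitted log2 fold change was 5.18 ± 0.57 (adjusted p = 9.59e-05, edgeR), or 4.64 without control replicate 2. Its treated level, 6.002 ± 0.635 CPM per kb in OCI-AML3 (SD, n = 3), ranked 6193 among the genes tested, far below the serine proteases.

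MMP9 had 3.51, 3.31 and 3.50 CPM in OCI-AML3 controls and 0.429, 0.493 and 0.531 CPM with FHD-286. All treated libraries were lower (log2 fold change -2.82 ± 0.45, adjusted p = 0.00059, edgeR). In FLT3-ITD controls it had 15.9, 3.796 and 15.5 CPM, and with FHD-286 1.22 and 1.33 CPM. Control replicate 2 was the low control and lay near the OCI-AML3 controls, and the treated libraries were below it. The log2 fold change was -3.20 ± 0.52 (adjusted p = 0.00106, edgeR), or -3.61 without that library. Of the exon length of MMP9, 18.4% overlaps the antisense gene SLC12A5-AS1, and the strand setting of the counting is not given in the sources used here. No exon of the other 9 members overlaps another gene. LTF had 4 counts in the treated FLT3-ITD libraries together and none in the controls. This is 1.89-fold above a floor of 3 counts in the control group, a value that leaves out the error of the 4 counts. LCN2 stayed at 0.

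**Figure D2:**
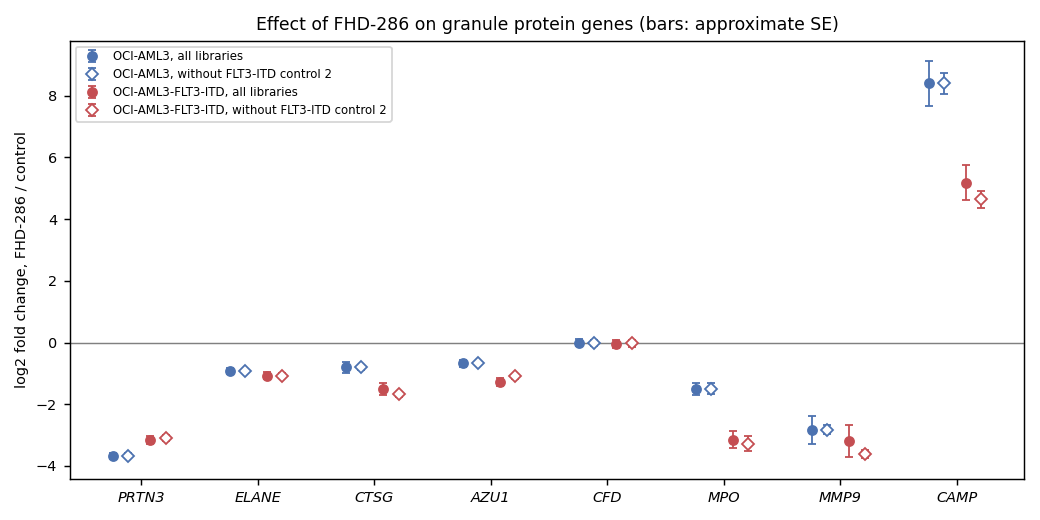
Points give the log2 fold change of FHD-286 over control for the 8 tested members, with bars of 1 approximate SE, in OCI-AML3 (blue) and the FLT3-ITD line (red), with all libraries (filled) and without control replicate 2 of the FLT3-ITD line (open diamonds). PRTN3, ELANE, CTSG, AZU1, MPO and MMP9 lie below 0 in both lines, CFD lies at 0 and CAMP lies above 0.

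The response of MPO was larger in the FLT3-ITD line than in OCI-AML3. The difference between the log2 fold changes was -1.64 ± 0.32 (adjusted p = 0.0225, edgeR). It was the 1 member called among 8, against 3.36% of all genes tested. The log2 fold change was higher in the FLT3-ITD line for 1.98% of all genes and lower for 1.38%. The MPO call was lost when any 1 of 7 libraries was left out: OCI-AML3 control replicate 1 or 2 (adjusted p = 0.0716 and 0.0619), OCI-AML3 FHD-286 replicate 1, 2 or 3 (0.0627, 0.0722 and 0.0554), and FLT3-ITD FHD-286 replicate 1 or 2 (0.144 and 0.0509). Its size then ran from -1.95 to -1.39. Without control replicate 2 of the FLT3-ITD line it was -1.78 (adjusted p = 0.000321, edgeR).

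For the other members the difference did not pass the test with all libraries: PRTN3 had 0.51 ± 0.14 (adjusted p = 0.0773, edgeR), AZU1 -0.60 ± 0.18 (0.105), CTSG -0.69 ± 0.24 (0.168) and CAMP -3.22 ± 1.15 (0.171). ELANE (-0.15 ± 0.14), MMP9 (-0.37 ± 0.64) and CFD (-0.03 ± 0.17) had adjusted p-values from 0.611 to 0.949. Leaving out control replicate 2 of the FLT3-ITD line raised the calls to 6 of 8, against 17% of all genes tested in that fit. PRTN3 was then 0.57 (adjusted p = 0.00131, edgeR), a smaller fall in the FLT3-ITD line. AZU1 (-0.42, adjusted p = 0.00248, edgeR), CTSG (-0.87, 2.6e-05) and MMP9 (-0.79, 0.00727) fell more in the FLT3-ITD line than in OCI-AML3. CAMP (-3.76, 0.00183) rose less there, but this value rests on OCI-AML3 controls at the detection limit, with 0, 1 and 1 counts. These are differences between responses, not between levels. ELANE (-0.15) and CFD (-0.01) did not pass the test in that fit either.

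The untreated lines differed in their granule genes. ELANE was lower in the FLT3-ITD line, at 440 to 527 CPM against 1145 to 1351 CPM in OCI-AML3, with no overlap. The log2 difference, FLT3-ITD minus OCI-AML3, was -1.35 ± 0.10 (adjusted p = 6.29e-05, edgeR). PRTN3 was lower too, at 968 to 1193 against 1809 to 2116 CPM (-0.81 ± 0.09, adjusted p = 0.000462, edgeR). Called were 4 of the 8 tested members, against 28% of all genes tested: 3 lower, against 13.5%, and 1 higher, against 14.5%. CFD was lower by -0.39 ± 0.11 (adjusted p = 0.0278, edgeR). The CFD call was lost without OCI-AML3 control replicate 1 or 3 (adjusted p = 0.0782 and 0.104), OCI-AML3 FHD-286 replicate 3 (0.0565) or FLT3-ITD control replicate 3 (0.0924), and with upper-quartile factors (0.0557) or library totals (0.0613). MMP9 was higher in the FLT3-ITD line (1.77 ± 0.41, adjusted p = 0.011, edgeR), and by 2.19 without control replicate 2. In ELANE and PRTN3, control replicate 2 lay within or beside the range of the other FLT3-ITD controls, whereas in MMP9, as in FLT3, it lay near OCI-AML3.

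MPO, AZU1, CTSG and CAMP were not called between the untreated lines. Their log2 differences were 0.25 ± 0.19, 0.21 ± 0.12, 0.16 ± 0.16 and 2.58 ± 1.06, with adjusted p-values of 0.361, 0.211, 0.5 and 0.094 (edgeR). Without control replicate 2 CTSG (0.34, adjusted p = 0.0019, edgeR) and CAMP (3.12, 0.00226) were called higher in the FLT3-ITD line, which made 6 of 8 members against 49.4% of all genes in that fit.

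Among treated libraries, 3 of the 8 tested members were called between the lines, against 26% of all genes tested. All 3 were lower in the FLT3-ITD line, against 11.7% of all genes (14.3% were higher). ELANE differed by -1.50 ± 0.11 (adjusted p = 4.62e-05, edgeR), MPO by -1.39 ± 0.25 (0.00342) and CFD by -0.42 ± 0.13 (0.0356). The CFD call was lost without OCI-AML3 control replicate 1 (adjusted p = 0.0564), OCI-AML3 FHD-286 replicate 1, 2 or 3 (0.103, 0.0684 and 0.065) or FLT3-ITD FHD-286 replicate 1 (0.307), and its value without the last was -0.24. PRTN3 (-0.30 ± 0.10), AZU1 (-0.39 ± 0.14), CTSG (-0.53 ± 0.18) and MMP9 (1.39 ± 0.49) had adjusted p-values from 0.0558 to 0.0592. CAMP differed by -0.64 ± 0.46 (adjusted p = 0.342, edgeR). All 8 tested members were called in the fit without control replicate 2 of the FLT3-ITD line, against 46.9% of all genes tested in that fit, although that library is in neither group compared; the fitted spread is shared by all groups. The untreated comparison, the treated comparison and the effects of FHD-286 share libraries.

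**Figure D3:**
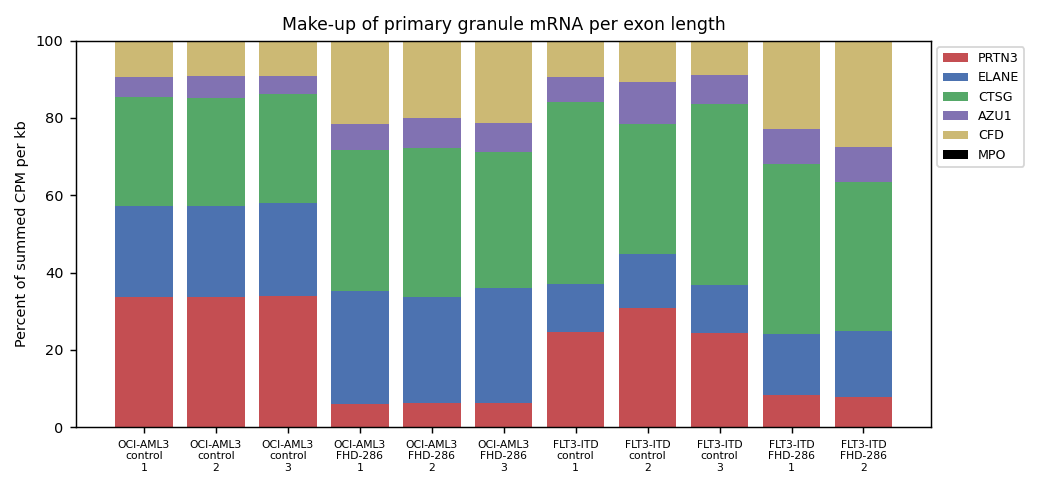
Stacked bars give, for each of the 11 libraries, the percentage of the summed CPM per kb of the 6 primary granule genes that each gene contributes (MPO is too low to be visible). The PRTN3 segment is 24.3% to 33.9% in controls and 5.97% to 8.33% in treated libraries, and the CFD segment is larger in treated libraries.

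Since the members fell by unequal amounts, the make-up of the primary granule transcripts differed between treated and untreated cells. Counts of the 10 members were 0.549% to 0.598% of all counts in OCI-AML3 controls and 0.276% to 0.293% with FHD-286, and 0.435% to 0.517% and 0.181% to 0.197% in the FLT3-ITD line. As a share of the summed CPM per kb of the 6 primary genes, PRTN3 made up 33.7% ± 0.171 (SD, n = 3) in OCI-AML3 controls and 6.09% ± 0.104 (n = 3) with FHD-286. Its share was 26.6% ± 3.66 (n = 3) in FLT3-ITD controls and 8.02% ± 0.447 (n = 2) with FHD-286, and the highest of those controls was control replicate 2 at 30.8%. PRTN3 thus went from the leading gene in OCI-AML3 controls to the fifth of the 6.

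CFD made up 9.19% ± 0.195 of the primary sum in OCI-AML3 controls and 20.9% ± 0.819 with FHD-286. Its shares were 9.65% ± 0.903 and 25.2% ± 3.40 in the FLT3-ITD line. The share of CTSG was 28.1% ± 0.0545 and 36.7% ± 1.72 in OCI-AML3, and 42.6% ± 7.79 and 41.2% ± 3.63 in the FLT3-ITD line. There the ranges overlapped through control replicate 2 (33.6%), while the other controls (46.9% and 47.2%) lay above both treated libraries (38.6% and 43.8%). The ratio of PRTN3 to ELANE, whose genes are 2839 bases apart, was 1.41 ± 0.00834 in OCI-AML3 controls and 0.211 ± 0.0107 with FHD-286. It was 2.05 ± 0.128 and 0.488 ± 0.0526 in the FLT3-ITD line. Treated and untreated values of this ratio did not overlap in either line. These shares and ratios are given as values, without a test.

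AZU1, PRTN3, ELANE and CFD lie next to each other, in this order and on the plus strand, at chr19:825097-863630. PLPPR3, which encodes a phospholipid phosphatase-related protein, lies on the minus strand 3120 bases before AZU1 and also fell, by -0.84 ± 0.13 in OCI-AML3 (adjusted p = 0.000477, edgeR) and -0.94 ± 0.15 in the FLT3-ITD line (0.000915). The next gene out on that side, PTBP1, which encodes a splicing regulator, had -0.21 ± 0.09 and -0.16 ± 0.10 (adjusted p = 0.0925 and 0.269), and without control replicate 2 of the FLT3-ITD line it was called at -0.21 and -0.25. On the other side of CFD, 4000 bases away, MED16, a Mediator subunit gene, had 0.01 ± 0.07 and -0.04 ± 0.08 (adjusted p = 0.954 and 0.756). R3HDM4 had 0.08 ± 0.09 and -0.02 ± 0.10 (adjusted p = 0.512 and 0.882). Library totals in place of TMM factors turned the FLT3-ITD values of MED16 and R3HDM4 to 0.07 and 0.09, and called R3HDM4 in OCI-AML3 at 0.23 (adjusted p = 0.0333, edgeR). In the order along the chromosome the called genes were therefore PLPPR3, AZU1, PRTN3 and ELANE, with PRTN3 lowest and CFD, 3396 bases after ELANE, not called.

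**Figure D4:**
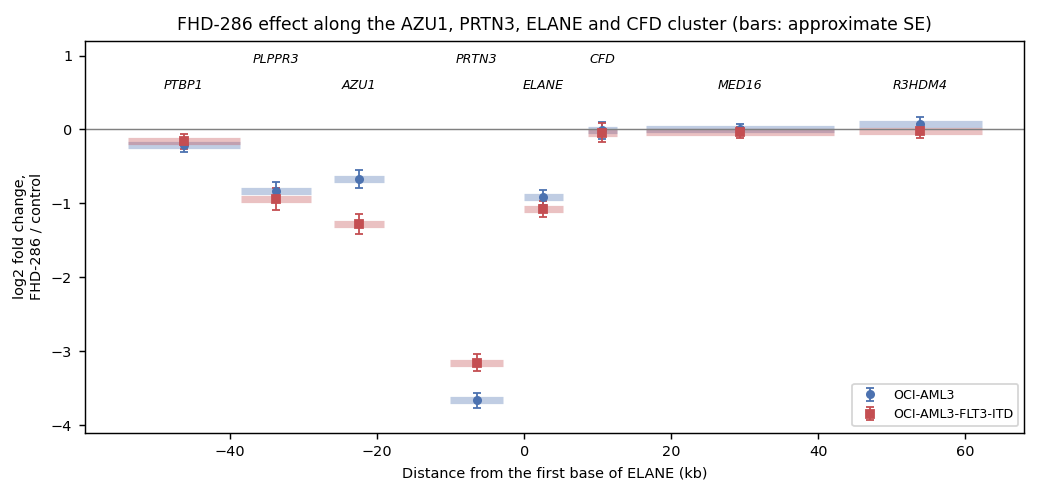
The vertical axis is the log2 fold change of FHD-286 over control and the horizontal axis the distance in kb from the first base of ELANE, with a band along the length of each gene and a point with a bar of 1 approximate SE. PLPPR3, AZU1, PRTN3 and ELANE lie below 0 in OCI-AML3 (blue) and the FLT3-ITD line (red), and CFD, MED16 and R3HDM4 lie near 0.

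CAMP lies at chr3:48223347-48225491 on the plus strand. Among its neighbours within 50 kb, CDC25A, the gene of a cell cycle phosphatase, fell in OCI-AML3 (-1.55 ± 0.13, adjusted p = 9.58e-06, edgeR) and had -0.36 ± 0.15 in the FLT3-ITD line (0.0904), where it was called at -0.52 without control replicate 2. ZNF589, a zinc finger gene, rose in both (0.56 ± 0.06, adjusted p = 6.05e-05, and 0.65 ± 0.07, 8.16e-05). MPO lies at chr17:58269856-58280935 on the minus strand, beside LPO, the gene of the related lactoperoxidase, and TSPOAP1. Neither was called in OCI-AML3 (LPO -0.49 ± 0.77, TSPOAP1 0.40 ± 0.73, adjusted p = 0.644 and 0.696), and TSPOAP1 was called there, at 0.40, without control replicate 2 of the FLT3-ITD line. In the FLT3-ITD line LPO had -3.05 ± 0.79 (adjusted p = 0.0147), a call lost without either of the treated libraries (0.114 and 0.0956). TSPOAP1 there had -2.99 ± 0.935 (adjusted p = 0.0335), a call lost without either of the treated libraries (0.205 and 0.123) or 1 of 4 OCI-AML3 libraries (control replicate 1 or 3, FHD-286 replicate 1 or 2, 0.05 to 0.0511), and -0.98 without control replicate 2. In the FLT3-ITD line LPO was also the 1 gene called among 3 tested of 8 related protease and peroxidase genes. This share is similar to the 30.5% of all genes tested that were called there. Not all of the related genes lie near members: GZMA and GZMK are on chromosome 5, where no member lies.

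Other contents of primary granules were covered by a list of 14 genes, of which 9 were tested. In OCI-AML3 5 fell and 1 rose, with a median log2 fold change of -0.33. The shares over all genes tested, which apply to each list that follows, were 21.5% lower and 19.8% higher in OCI-AML3 and 14.9% lower and 15.6% higher in the FLT3-ITD line, with medians of 0.01 and -0.02. Of the same 9, 4 fell and 1 rose in the FLT3-ITD line, with a median of -0.46. LYZ, the gene of lysozyme, fell from 185 to 199.6 CPM to 12.6 to 15.0 CPM in OCI-AML3 (-3.84 ± 0.11, adjusted p = 8.32e-09, edgeR) and from 77.0 to 89.5 CPM to 9.10 to 10.96 CPM in the FLT3-ITD line (-3.05 ± 0.12, 1.87e-07), a size close to that of PRTN3. MAN2B1, a lysosomal mannosidase gene, fell by -1.24 ± 0.09 and -1.29 ± 0.11. RNASE2, which encodes the eosinophil-derived neurotoxin, rose by 0.86 ± 0.09 in OCI-AML3 and 0.40 ± 0.09 in the FLT3-ITD line, where the call was lost without FHD-286 replicate 1 (adjusted p = 0.112). Its neighbour in sequence RNASE3 fell by -0.43 ± 0.12 and -1.38 ± 0.15, and the smaller fall was not called without OCI-AML3 control replicate 3 or FHD-286 replicate 3 (adjusted p = 0.0697 and 0.0921) or with library totals (0.0809). The defensin genes DEFA1, DEFA1B, DEFA3 and DEFA4 had no count in any group. Of the exon length of LYZ 34.0% and of MAN2B1 21.2% overlaps other genes.

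The list of other secondary and tertiary granule contents had 20 genes, of which 10 were tested. In OCI-AML3 4 fell and 2 rose (median -0.46), and in the FLT3-ITD line 5 fell and 1 rose (median -0.78). CYBB, the gene of the NADPH oxidase subunit gp91phox, fell by -3.10 ± 0.10 and -3.07 ± 0.12. TCN1, which encodes the vitamin B12 carrier of specific granules, fell by -2.14 ± 0.16 and -3.16 ± 0.20. HPSE, the heparanase gene, fell by -0.58 ± 0.11 and -0.81 ± 0.12. HP, the haptoglobin gene, rose with CAMP, by 3.13 ± 0.42 in OCI-AML3 (adjusted p = 0.00018, edgeR) and 1.86 ± 0.44 in the FLT3-ITD line (0.00932), where the call was lost without FHD-286 replicate 1 (0.0642). OLFM4, CRISP3 and CEACAM8, which are specific granule genes, had no count in any group.

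Genes that process, pack and export granule proteins did not move one way. Of 18 genes 17 were tested; 6 rose and 4 fell in OCI-AML3 (median -0.03), and 3 rose and 3 fell in the FLT3-ITD line (median -0.26). CST7, which encodes cystatin F, an inhibitor of the protease-activating cathepsin C, fell by -3.26 ± 0.43 and -2.95 ± 0.51, the latter -2.11 without control replicate 2. VAMP8, a SNARE gene of granule fusion, fell by -1.48 ± 0.09 and -1.40 ± 0.11. RAB27A, a GTPase gene of granule release, rose by 1.10 ± 0.08 and 0.63 ± 0.09. CTSC and SRGN were singled out after their values were seen, because their products, cathepsin C and the proteoglycan serglycin, activate and store the serine proteases. CTSC had -0.17 ± 0.09 and -0.08 ± 0.10 (adjusted p = 0.148 and 0.568, edgeR), and without control replicate 2 of the FLT3-ITD line it was called at -0.17 and -0.18. SRGN had -0.03 ± 0.29 and -0.32 ± 0.33 (adjusted p = 0.949 and 0.507). Without that library the FLT3-ITD value of SRGN was 0.26 (0.0269).

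Inhibitors of the granule proteases were covered by 14 genes, of which 12 were tested. In OCI-AML3 7 fell and 2 rose (median -0.52), against 21.5% and 19.8% of all genes tested. Among the same 12, 6 fell and 1 rose in the FLT3-ITD line (median -0.65), against 14.9% and 15.6%. SERPINA1, which encodes alpha-1 antitrypsin, the main inhibitor of elastase, fell by -2.51 ± 0.12 and -2.66 ± 0.14. SERPINB10 fell by -1.95 ± 0.18 and -2.50 ± 0.21, with 20.3% of its exon length in SERPINB2. SERPINB1, the gene of a cytosolic inhibitor of elastase, cathepsin G and proteinase 3, fell by -0.56 ± 0.09 and -0.86 ± 0.10. TIMP1, the gene of an inhibitor of gelatinase B, rose by 0.71 ± 0.12 and 0.72 ± 0.13. SLPI, the gene of an elastase and cathepsin G inhibitor, rose in OCI-AML3 from 1.33 to 2.03 CPM to 5.17 to 6.43 CPM (1.82 ± 0.21, adjusted p = 7.29e-05, edgeR), and had -0.03 ± 0.24 in the FLT3-ITD line (0.932).

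Transcription factors of granulocyte development were covered by 18 genes, of which 16 were tested. In OCI-AML3 7 fell and 5 rose, against 21.5% and 19.8% of all genes tested, and in the FLT3-ITD line 7 fell and 3 rose, against 14.9% and 15.6%. SPI1, which encodes PU.1, had 310, 303 and 345 CPM in OCI-AML3 controls and 42.2, 49.1 and 42.2 CPM with FHD-286. In the FLT3-ITD line it had 316, 284 and 271 CPM and then 23.1 and 24.1 CPM. It was lower in all treated libraries, by -2.84 ± 0.09 (adjusted p = 2.47e-08, edgeR) and -3.62 ± 0.12 (8.04e-08). CEBPA, the gene of C/EBP alpha, fell by -1.75 ± 0.19 in the FLT3-ITD line (adjusted p = 8.44e-05). In OCI-AML3 it had -0.50 ± 0.16 (0.0279), a call lost without OCI-AML3 control replicate 1 or 3 or any 1 of the FHD-286 replicates (adjusted p from 0.0637 to 0.107), with upper-quartile factors (0.063) and with library totals (0.113). Of its exon length 43.4% overlaps other genes.

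CEBPB and CEBPD, whose products act in emergency granulopoiesis and the acute phase, rose in OCI-AML3, and their response was lower in the FLT3-ITD line. The difference between the lines was -2.46 ± 0.30 for CEBPB (adjusted p = 0.00273, edgeR) and -1.18 ± 0.28 for CEBPD (0.0466), the latter a call lost without any 1 OCI-AML3 library or either treated FLT3-ITD library (0.0583 to 0.234). CEBPB had 25.4 to 28.7 CPM in OCI-AML3 controls and 95.7 to 98.8 CPM with FHD-286 (1.85 ± 0.20, adjusted p = 4.24e-05, edgeR). In the FLT3-ITD line it had 92.0, 52.6 and 83.7 CPM in controls and 39.7 and 59.96 CPM with FHD-286, which overlapped (-0.61 ± 0.22, 0.0568), and without control replicate 2 it was called lower at -0.82. CEBPD rose by 1.04 ± 0.18 in OCI-AML3 (0.00116) and had -0.14 ± 0.21 in the FLT3-ITD line (0.641), or 0.12 without control replicate 2. GFI1, the gene of a repressor needed for neutrophil maturation, rose by 0.56 ± 0.08 in OCI-AML3 (adjusted p = 0.000329) and fell by 0.42 on the log2 scale in the FLT3-ITD line (0.00643), a call lost without FHD-286 replicate 1 of that line (0.0828).

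RUNX1 rose slightly in OCI-AML3 (0.42 ± 0.13, adjusted p = 0.0269, edgeR), a call lost without OCI-AML3 control replicate 1 or 3 or FHD-286 replicate 1 or 2 (0.0574 to 0.0856). Its value in the FLT3-ITD line was 0.22 ± 0.15 (0.287). MYB had -0.24 ± 0.06 in OCI-AML3 (0.0109), a call lost without FHD-286 replicate 3 (0.0838), with upper-quartile factors (0.0721), with library totals (0.316) and with no count filter (0.108), and fell by 0.52 on the log2 scale in the FLT3-ITD line (0.000454). CEBPE, the gene of C/EBP epsilon, had 6, 5 and 11 counts in OCI-AML3 controls, 1, 15 and 4 in FLT3-ITD controls, and none in any treated library. Controls stood 9.62-fold above a floor of 3 counts in the treated group in OCI-AML3, and 4.69-fold above it in the FLT3-ITD line. In the FLT3-ITD line 15 of the 20 control counts came from control replicate 2. Without that library the value in the FLT3-ITD line was 1.71-fold, from 5 control counts. These values leave out the error of the control counts. CAMP rose in treated libraries in which CEBPE had no count, and a link between them was not tested.

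**Figure D5:**
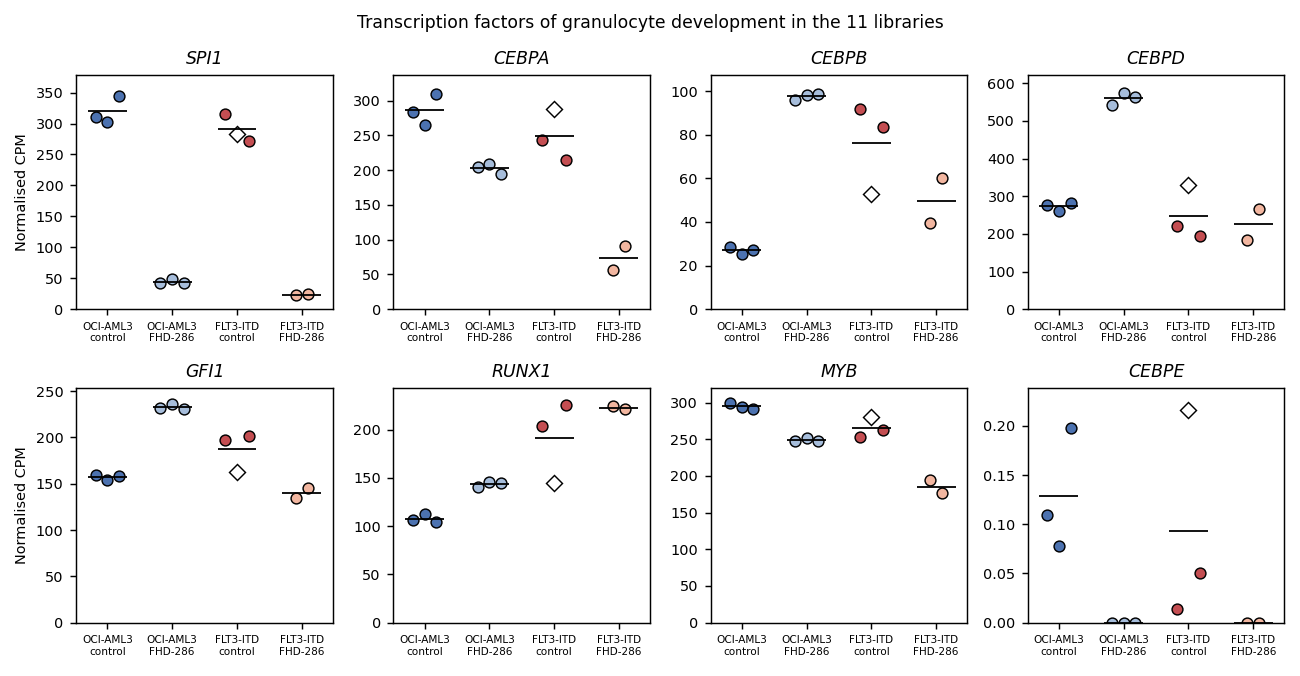
Each panel shows 1 transcription factor gene in normalised CPM on its own linear axis from 0, with 1 point per library, a line at each group mean and an open diamond for control replicate 2 of the FLT3-ITD line. SPI1 is low in all treated libraries of both lines, whereas CEBPB, CEBPD and GFI1 are high in the treated OCI-AML3 libraries and not in those of the FLT3-ITD line.

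Vitamin D, retinoid and NF-kB regulators are known to act on later granule genes, CAMP being a direct target of the vitamin D receptor. Of 10 genes 9 were tested; 1 rose and 3 fell in OCI-AML3, and 3 rose and 3 fell in the FLT3-ITD line. With 41.3% of all genes called in OCI-AML3 and 30.5% in the FLT3-ITD line, the 4 calls in OCI-AML3 were near the background. VDR, the vitamin D receptor gene, fell by -1.54 ± 0.09 (adjusted p = 6.18e-07, edgeR) and -0.92 ± 0.10 (6.52e-05), and its partner gene RXRA by -0.99 ± 0.09 and -1.09 ± 0.11. STAT3 rose by 1.27 ± 0.10 and 0.81 ± 0.11. CAMP rose in libraries in which VDR and RXRA transcripts were lower. Transcript levels do not measure receptor activity, and a link to CAMP was not tested.

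Of 13 genes of receptors and binding partners of granule proteins, 7 were tested; 3 fell and 2 rose in OCI-AML3, and 4 fell and 1 rose in the FLT3-ITD line. FPR1, a formyl peptide receptor gene, rose by 1.79 ± 0.46 and 2.34 ± 0.43 from a low level. Its mean was 0.149 CPM in OCI-AML3 controls and 0.518 CPM with FHD-286, and 0.336 and 1.72 CPM in the FLT3-ITD line. LRP1, a receptor gene for protease-inhibitor complexes, rose in OCI-AML3 (0.92, adjusted p = 0.0168, edgeR), a call lost without OCI-AML3 control replicate 1 (0.0644). LRP1 in the FLT3-ITD line had 0.44 (0.285), or 0.87 without control replicate 2. CFP, which encodes properdin, the complement regulator stored in specific granules that acts in the same pathway as factor D, fell by -2.77 ± 0.45 and -2.55 ± 0.54. The CFP call in the FLT3-ITD line was lost without FHD-286 replicate 1 (adjusted p = 0.0598) and its value was -1.66 without control replicate 2. ITGAM, the integrin gene CD11b, had -0.05 ± 0.20 in OCI-AML3 (adjusted p = 0.86; 0.02 with upper-quartile factors and 0.10 with library totals) and fell by -1.71 ± 0.24 in the FLT3-ITD line (0.000464).

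Markers of other myeloid cells moved with FHD-286 as well. The 9 monocyte and macrophage markers summed to 146 to 155 CPM in OCI-AML3 controls and 41.4 to 46.7 CPM with FHD-286, and to 131 to 304 and 85.0 to 87.0 CPM in the FLT3-ITD line. Of 8 tested, 5 fell and none rose in each line, among them CSF1R (-6.57 ± 0.44 and -7.17 ± 0.53), VCAN (-1.97 ± 0.20 and -1.26 ± 0.22) and S100A9 (-1.89 ± 0.23 and -3.15 ± 0.30). FCN1 and CD68 stayed under 1 CPM in all libraries. The 8 mature neutrophil markers summed to 324 to 339 CPM in OCI-AML3 controls and 402 to 422 CPM with FHD-286, and to 285 to 338 and 148 to 179 CPM in the FLT3-ITD line. CSF3R, the gene of the G-CSF receptor, fell by -1.11 ± 0.07 and -1.70 ± 0.09, and CXCR2 by -2.91 ± 0.21 and -1.92 ± 0.23. MNDA rose by 0.59 ± 0.11 in OCI-AML3 and fell by -0.62 ± 0.12 in the FLT3-ITD line. This 1 gene made up most of the treated neutrophil marker sums, with means of 374 CPM in OCI-AML3 and 127 CPM in the FLT3-ITD line.

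The 7 eosinophil markers summed to 25.2 to 29.3 CPM in OCI-AML3 controls and 19.2 to 21.0 CPM with FHD-286, and to 13.6 to 19.3 and 6.31 to 6.80 CPM in the FLT3-ITD line. RNASE3 was the 1 eosinophil marker above 1 CPM, and PRG3 and CLC had no count. Mast cell, erythroid and lymphoid markers summed to at most 1.33, 0.924 and 5.34 CPM in any library. The part of these other cell markers in the granule gene results was not tested.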

How the data were processed

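The submitters' processing notes name STAR and the hg38 build, and the authors deposited whole-number read counts for 58037 genes. The counting program, annotation and strand setting are not given in the sources used here. Identifiers were matched to GENCODE 29 for 57433 genes, and exon lengths (union of exons) gave CPM per kb. Genes passing edgeR's filterByExpr (minimum count 10, minimum total 15) were tested with edgeR 4.0.16 in R 4.3.3: quasi-likelihood F test, TMM factors, 4 group means, all 11 libraries sharing the spread, 7 residual degrees of freedom, two-sided, Benjamini-Hochberg adjustment over 18908 genes, threshold 0.05. SEs are approximate (the log2 fold change over the square root of F). Alternatives were DESeq2 1.42.0, other scalings and filters, fits on the compared groups, a replicate block, and each library left out. The fits were tested on simulated data.

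The members and gene lists were chosen with earlier results of these data known. Named were all members, FLT3, 8 transcription factors, tested neighbours within 50 kb (up to 3 a side), and from each other list the 3 genes with the smallest p in each FHD-286 comparison and the minority-direction gene with the smallest p. CTSC and SRGN were added, and neighbours of CTSG, LTF, LCN2 and MMP9 were left out of the text. Also left out were some low-count genes of the lists, CD44 and S100A8, and the FHD-286 effects on CD33, NPM1 and ANPEP. Promoters are from RefSeq (GRCh38.p14). Counting intervals cover counting error only, and ratios to a floor leave out the error of the observed counts.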

Additional observations from a re-analysis of the deposited data

Results flagged for a closer look

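These results, all those of genes named in the text that passed, are listed because the effect of FHD-286 differed between the lines in a test of the difference itself (FLT3-ITD line minus OCI-AML3, log2 scale, edgeR with Benjamini-Hochberg adjustment). MPO differed by -1.64 (adjusted p = 0.0225), with the calls lost on leaving out single libraries given above. CEBPB differed by -2.46 (0.00273) and GFI1 by -0.99 (0.00358), and both calls held without each library. CEBPD differed by -1.18 (0.0466), with its lost calls given above.

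SPI1 differed by -0.78 (adjusted p = 0.0128), a call lost without OCI-AML3 control replicate 1 (0.0511) or FLT3-ITD FHD-286 replicate 1 or 2 (0.0936 and 0.0611). CEBPA differed by -1.25 (0.0218), lost without OCI-AML3 control replicate 1 or 2, any 1 OCI-AML3 FHD-286 replicate, or FLT3-ITD FHD-286 replicate 1 (0.0552 to 0.0729). LYZ differed by 0.79 (0.0168), a smaller fall in the FLT3-ITD line, lost without OCI-AML3 control replicate 1, OCI-AML3 FHD-286 replicate 1 or 3, or FLT3-ITD FHD-286 replicate 1 (0.0594 to 0.115).

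RNASE3 differed by -0.94 (adjusted p = 0.0253), lost without OCI-AML3 control replicate 1 or 2, any 1 OCI-AML3 FHD-286 replicate, or FLT3-ITD FHD-286 replicate 1 or 2 (0.0633 to 0.115). TCN1 differed by -1.03 (0.0442), lost without any 1 library other than FLT3-ITD control replicate 1 or 2 (0.0582 to 0.174). SLPI differed by -1.85 (0.0135), lost without FLT3-ITD FHD-286 replicate 1 or 2 (0.09 and 0.0748).

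MNDA differed by -1.20 (adjusted p = 0.00458), a call held without each library. CDC25A differed by 1.19 (0.011), lost without FLT3-ITD FHD-286 replicate 1 or 2 (0.0708 and 0.0556). CSF3R differed by -0.60 (0.0179), lost without OCI-AML3 control replicate 1 or 2 or FLT3-ITD FHD-286 replicate 1 or 2 (0.0519 to 0.0962). ITGAM differed by -1.66 (0.0193), lost without OCI-AML3 control replicate 1 or 3, OCI-AML3 FHD-286 replicate 1 or 2, or FLT3-ITD FHD-286 replicate 1 or 2 (0.0555 to 0.106). VDR differed by 0.61 (0.0276), a smaller fall in the FLT3-ITD line, lost without any 1 OCI-AML3 library or FLT3-ITD FHD-286 replicate 1 (0.0604 to 0.156), with upper-quartile factors (0.0517) and with no filter (0.0772).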

How the results depend on the processing

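The 7 member calls for FHD-286 in each line kept their direction and stayed called under every alternative run. Over all genes, fits on the compared groups alone moved the count called in the FLT3-ITD line from 5767 to 1618, between untreated lines from 5289 to 1736 and between treated lines from 4916 to 9581. Such a fit has no value for the difference between the lines, where 635 genes became 1441 with the DESeq2 Wald test and 349 with the replicate block. Leaving out 1 library at a time gave 2908 to 9140 for the FLT3-ITD line, 105 to 3177 for the difference, 2914 to 9223 untreated and 1909 to 8756 treated, each highest without control replicate 2 of the FLT3-ITD line; the lowest were without FLT3-ITD FHD-286 replicate 1, except OCI-AML3 control replicate 3 for the untreated lines.

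Of the members, 1 was called for the difference; it was 2 with no filter, 4 with the DESeq2 Wald test, 0 with the replicate block and 0 to 6 with 1 library left out. MPO had an adjusted p of 0.0603 with the replicate block (edgeR). Between untreated lines 4 became 2 on the compared groups alone (3 to 6 with 1 library left out). Between treated lines 3 became 5 with DESeq2 size factors or upper-quartile factors, 6 with no filter or with the stricter filter (CPM 1 or more in 3 or more libraries), 7 with the DESeq2 Wald test and 8 on the compared groups alone (2 to 8 with 1 library left out).

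Signs turned for values near 0 that were not called with all libraries. In OCI-AML3, CFD was 0.0563 with upper-quartile factors, 0.144 with library totals, 0.0244 with no filter and 0.0253 with the stricter filter, and SRGN was 0.0396, 0.127, 0.0083 and 0.009. ITGAM was 0.0153 and 0.102 under those scalings. In the FLT3-ITD line, library totals gave CFD 0.0698, CTSC 0.0269, MED16 0.0706, R3HDM4 0.0856 and SLPI 0.0765. Leaving out 1 library gave, in OCI-AML3, CFD -0.0714 to 0.0426, SRGN -0.0634 to 0.0142, ITGAM -0.147 to 0.0346, MED16 -0.0475 to 0.063 and LPO -1.10 to 0.13. In the FLT3-ITD line it gave CFD -0.24 to 0.137, CEBPD -0.428 to 0.117, SLPI -0.184 to 0.146, CTSC -0.175 to 0.0013, SRGN -0.565 to 0.255, MED16 -0.0757 to 0.0049 and R3HDM4 -0.117 to 0.0657. For the difference it gave CFD -0.226 to 0.151, and for CTSG between untreated lines -0.0279 to 0.344. SRGN at 0.255, without control replicate 2, passed the test. The cause was not tested.

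Equal replicate numbers did not pair the libraries: deviations of 15 same-number pairs correlated at -0.03 to 0.12, and 2 exceeded 0.1. Depth limits CAMP controls, CEBPE, LTF and LCN2, and the difference has no value for CEBPE, which had no count in treated libraries.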
